A study of Mus musculus with 18 samples.

Results

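The genes of the retinoic acid receptors (RARs) and of their partners, the retinoid X receptors (RXRs), were followed in F9 cells treated with 4 retinoids. The 6 genes Rara, Rarb, Rarg, Rxra, Rxrb and Rxrg were taken by gene symbol, and all 6 were among the 19938 genes measured. F9 is a mouse embryonal carcinoma line that can be differentiated with retinoic acid. The cells received all-trans retinoic acid (ATRA, 1 µM), which activates every RAR, BMS961 (0.1 µM, specific for RARγ per the submitters' design text, as are the other specificities), BMS753 (1 µM, specific for RARα) or BMS641 (1 µM, specific for RARβ), each for 2, 6, 24 and 48 h, or ethanol vehicle for 48 h. Total RNA was read on 18 Affymetrix whole-transcript arrays, 1 for each retinoid and time and 2 for vehicle. Nothing in the labels tells if both vehicle arrays stem from separate cultures, so the spread between them may be technical.

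RARs are nuclear receptors that bind DNA as heterodimers with RXRs at retinoic acid response elements, which are direct repeats of a short sequence. Without ligand the pair holds corepressors on its target genes, and a bound agonist exchanges them for coactivators. The 3 RARs are products of separate genes, and in embryonal carcinoma cells Rarb has long been known as a direct retinoid target through an element in its promoter. RXRs also pair with the thyroid hormone, vitamin D and other nuclear receptors.

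The element is shown because Rarb was the receptor gene whose level moved furthest. The promoter window of Rarb in RefSeq (GRCm38.p6) spans 250 bases before to 50 bases after an annotated start (minus strand of chromosome 14, chr14:16575427-16575726). It is printed 5′ to 3′ along the gene, with the match to the search pattern given below in capitals.
Rarb promoter: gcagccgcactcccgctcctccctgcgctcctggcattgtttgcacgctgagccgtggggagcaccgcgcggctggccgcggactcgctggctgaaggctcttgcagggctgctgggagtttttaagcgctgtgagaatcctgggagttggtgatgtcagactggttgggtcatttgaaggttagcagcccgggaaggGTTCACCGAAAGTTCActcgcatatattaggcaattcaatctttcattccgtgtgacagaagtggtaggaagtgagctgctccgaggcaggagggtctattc
The match in capitals lies at chr14:16575513-16575528, from 52 to 37 bases before that start. This was the only Rarb window searched. It lies inside the span of the gene (chr14:16430839-17082331) and not at its outer 5′ end, which was not searched. The search was for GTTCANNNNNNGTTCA and for the forms with GGTCA in place of either GTTCA, on both strands. These patterns hold the last 5 bases of each unit of a direct repeat with 5 bases between its 6-base units. The first base of the first unit thus lies just outside the capitals and the interval given. Of 32851 promoter windows of the same length 81 held 1 of these forms (0.247%). All 6 receptor genes had windows, 13 in all, and the Rarb window was the only 1 of them with a match. No window of the 6 genes held the shorter repeat GTTCANNNGTTCA or its GGTCA forms, which 0.399% of all windows held. Among the 11 genes of a retinoid response list that had a window, Cyp26a1, whose product degrades retinoic acid, held a match, read on the opposite strand at chr19:37697776-37697791.
Rarb element: aaggGTTCACCGAAAGTTCActcg
Cyp26a1 element: aagaTGAACTTTGGGTGAACtaat
These matches describe the sequence of the windows and were not tested for binding.

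Each receptor gene was read by 1 probe set, so its isoforms were not told apart. In GRCm38.p6, Rara lies at chr11:98927800-98974942, Rarb at chr14:16430839-17082331 and Rarg at chr15:102234938-102257522. Rxra lies at chr2:27676445-27763319, Rxrb at chr17:34031812-34038403 and Rxrg at chr1:167598362-167639623. Levels are log2 values, and probe sets differ in brightness, so levels were compared between arrays for a gene and not between genes. The medians of the arrays over all probe sets lay between 5.31 and 5.47. With so few arrays, precision is limited by their number.

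The vehicle arrays differed in Rarb by 1.33 (replicate 1 minus replicate 2), a gap that 1.3% of all genes reached, against a median absolute difference of 0.23 over all genes. Their difference was 0.37 for Rxrg and between -0.19 and -0.02 for the other receptor genes. Replicate 1 was also higher than replicate 2 in the retinoid response genes Dhrs3 (5.78 and 4.96), Stra6 (6.06 and 5.65) and Cyp26a1 (5.05 and 4.85). The Cyp26a1 gap was smaller than the median over all genes. Replicate 1 was higher in the endoderm factor Gata6 too (7.08 and 6.03), and lower in the response gene Crabp2 (5.81 and 6.19). The embryonal carcinoma markers Nanog (12.07 and 11.08), Zfp42 (11.59 and 10.99), Sox2 (11.91 and 11.72) and Pou5f1 (12.20 and 12.08) were likewise higher in replicate 1. The cause of these differences was not tested. Over 12146 probe sets with no listed gene, the 4 ATRA arrays and vehicle replicate 1 deviated together (mean correlation 0.283 within these 5 arrays, 0.005 within the other 13 and -0.185 across). The labels name no batch and this set was recognised from the values. A fit with the set as a block sets ATRA against vehicle replicate 1 only, and BMS961, BMS753 and BMS641 against vehicle replicate 2 only, and its values stand beside the results they change. All 10 embryonal carcinoma markers measured lay above the array median on every array. Their summed log2 level ran from 105.6 to 110.4 with ATRA, 106.6 to 112.0 with BMS961, 110.7 to 111.8 with BMS753 and 111.4 to 111.7 with BMS641, against 110.8 and 112.9 in vehicle, and the lowest sums were thus on ATRA and BMS961 arrays.

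Rarb is the gene of RARβ. With ATRA its level was 7.58, 7.50, 8.39 and 9.27 at 2, 6, 24 and 48 h. With BMS961 it was 5.95, 6.52, 8.05 and 8.52, and with BMS753 5.21, 5.90, 7.05 and 7.82 at the same times. With BMS641, the agonist named for RARβ itself, it was 4.92, 5.03, 4.92 and 4.97, against 5.79 and 4.45 on the vehicle arrays. ATRA and BMS961 arrays lay above both vehicle arrays at every time, BMS753 arrays from 6 h on, and BMS641 arrays between the vehicle arrays at every time. At each time the order was ATRA, BMS961, BMS753, BMS641 from high to low. Of the 17 gaps between neighbours in the order of the 18 levels, none was larger than the gap of the vehicle pair. That count covers neighbours only and does not bear on arrays further apart in the order.

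**Figure D1:**
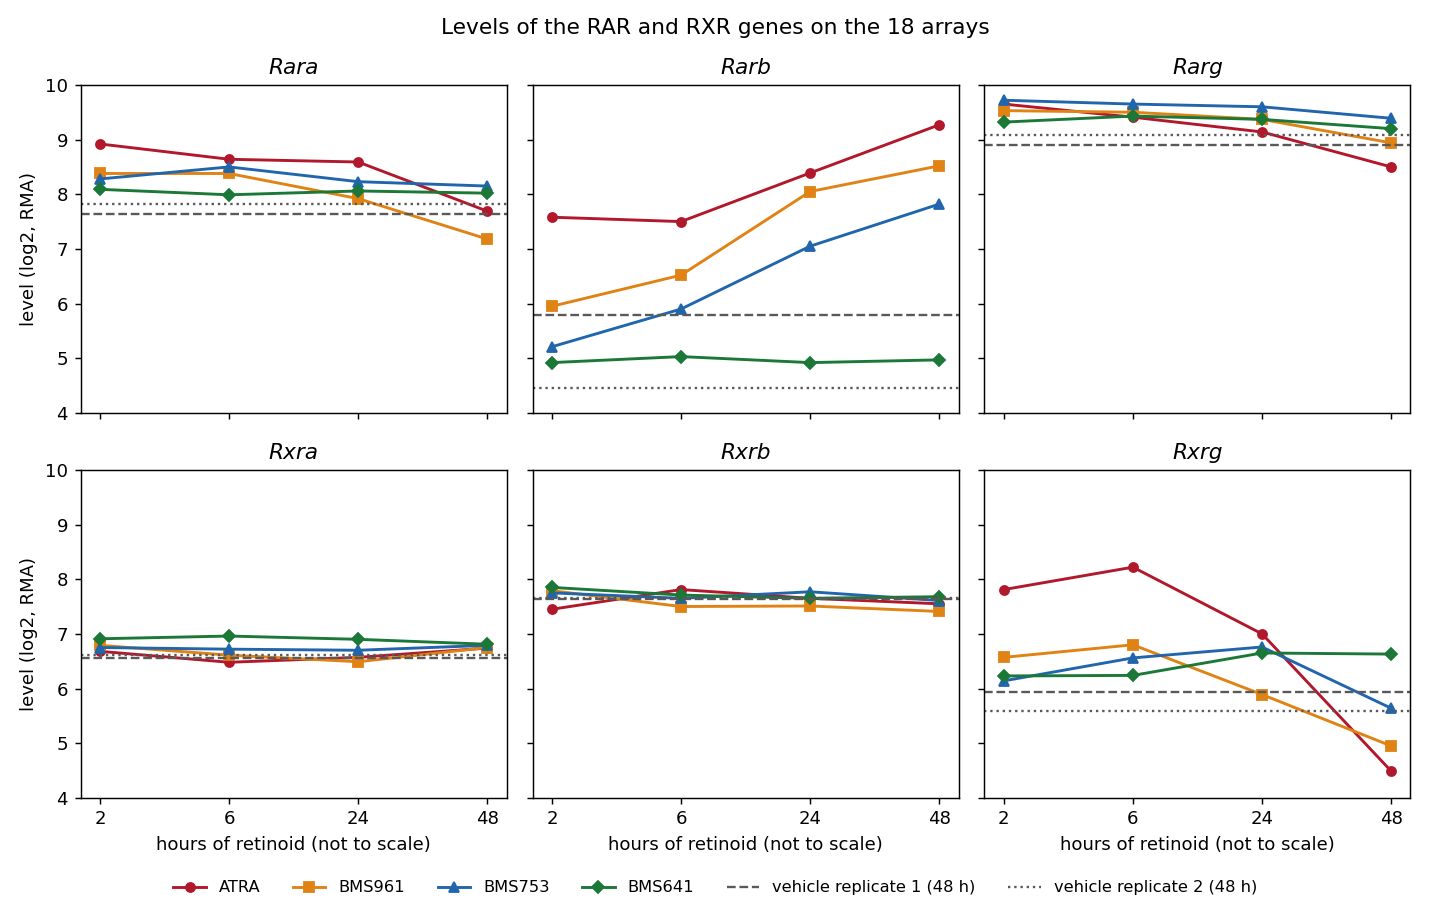
Log2 level of each receptor gene (vertical axis, 4 to 10 in every panel) at 2, 6, 24 and 48 h of each retinoid (horizontal axis, 1 array per point), with the vehicle arrays at 48 h as horizontal lines. Rarb climbs to 9.27 with ATRA, 8.52 with BMS961 and 7.82 with BMS753 at 48 h and stays between 4.92 and 5.03 with BMS641, and Rxrg peaks at 8.22 with ATRA at 6 h and is lowest, at 4.49, with ATRA at 48 h.

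The 24 and 48 h arrays of a retinoid were pooled as late and the 2 and 6 h arrays as early in a limma fit to all 18 arrays. Because all vehicle arrays were at 48 h, early arrays, and the 24 h array, differed from them in time in culture too. Late against vehicle, 1 of the 6 receptor genes passed the test with ATRA (percent of all genes called 4.71), 1 with BMS961 (1.26), 1 with BMS753 (0.186) and 0 with BMS641 (0 of all genes, and 916 genes at an unadjusted p under 0.05). It was Rarb each time. Rarb rose 13.1-fold with ATRA (3.71 ± 0.35 SE, adjusted p = 0.00043), 8.98-fold with BMS961 (3.17 ± 0.35, adjusted p = 0.00177) and 4.96-fold with BMS753 (2.31 ± 0.35, adjusted p = 0.0382). By the size of the change it ranked 6 of 19938 genes with ATRA, 8 with BMS961 and 3 with BMS753. The BMS641 value was -0.18, with a 95% interval from -0.94 to 0.59, and its sign turned with the vehicle array used (0.49 without replicate 1, -0.84 without replicate 2). No detection calls were used, so each Rarb fold is a ratio of measured signals and not of transcript numbers. These 4 comparisons share the vehicle arrays. The ATRA call held without any single array and under the array set block (3.04). The BMS961 value was 3.83 with that block (adjusted p = 9.59e-05), above the ATRA value of 3.04, but there each retinoid has a different vehicle array. Against a shared vehicle array ATRA lay above BMS961. The values were 4.37 and 3.83 without vehicle replicate 1, and 3.04 and 2.50 without vehicle replicate 2. The BMS961 call was lost only without the BMS961 24 h array (3.12, adjusted p = 0.0505). The BMS753 call was lost without any 1 of the 12 BMS arrays (values between 2.16 and 2.46, adjusted p between 0.0722 and 0.765), after quantile normalization (adjusted p = 0.0685) and in a fit of late and vehicle arrays alone (adjusted p = 0.248). With the array set as a block it was 2.98 (adjusted p = 0.000759), and without vehicle replicate 2 it was 1.64 (adjusted p = 0.0118).

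Early against vehicle, 3 of the 6 genes passed with ATRA (percent of all genes called 1.25), namely Rarb, Rara and Rxrg, all higher. None passed with BMS961 (0.0401), BMS753 (0) or BMS641 (0), where limma had 1401, 1115 and 1501 genes at an unadjusted p under 0.05. Rarb rose 5.34-fold with early ATRA (2.42 ± 0.35, adjusted p = 0.00653), and the call was lost only without the ATRA 2 h array (2.15, adjusted p = 0.142). The early Rarb values were 1.11 (interval 0.35 to 1.88) for BMS961, 0.44 (-0.33 to 1.20) for BMS753 and -0.15 (-0.91 to 0.62) for BMS641. Under the array set block the early values were 1.75 for ATRA (adjusted p = 0.00773), 1.78 for BMS961 (adjusted p = 0.0532), 1.1 for BMS753 and 0.52 for BMS641. Without vehicle replicate 2 they were 0.45 for BMS961, -0.23 for BMS753 and -0.81 for BMS641, so the sign of the last 2 turned with the vehicle array.

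Late was also compared with early within each retinoid, without the vehicle levels. With ATRA 3 of the 6 genes passed (percent of all genes called 7.27), with BMS961 1 (0.767), and with BMS753 (0.00502) and BMS641 (0) none, with 1411 and 390 genes at an unadjusted p under 0.05 by limma. Rarb rose by 1.29 ± 0.35 with ATRA (adjusted p = 0.0464) and by 2.05 ± 0.35 with BMS961 (4.15-fold, adjusted p = 0.0288). With BMS753 its value was 1.87 ± 0.35 (adjusted p = 0.203), and with BMS641 -0.03 (interval -0.79 to 0.73). On the single arrays Rarb climbed at each of the 3 steps with BMS961 and BMS753, with the largest step from 6 to 24 h (1.53 with BMS961, 1.14 with BMS753). With ATRA it stood at its level of 2 h still at 6 h (step -0.08) and then climbed by 0.90 and 0.87. The ATRA call was lost without any 1 of the 16 retinoid arrays (values between 1.02 and 1.56, adjusted p between 0.0536 and 0.308), after quantile normalization (adjusted p = 0.0514), with arrays centred on their median (adjusted p = 0.0567) and with no common steps (adjusted p = 0.0696). The BMS961 call was lost without any 1 BMS961 array, the BMS753 24 h or 48 h array, or the BMS641 2 h or 6 h array (values between 1.88 and 2.22, adjusted p between 0.0533 and 0.441), and with no common steps (adjusted p = 0.0506). On leaving out either vehicle array the BMS753 rise stayed at 1.87, as vehicle arrays enter it only through the estimate of spread.

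**Figure D2:**
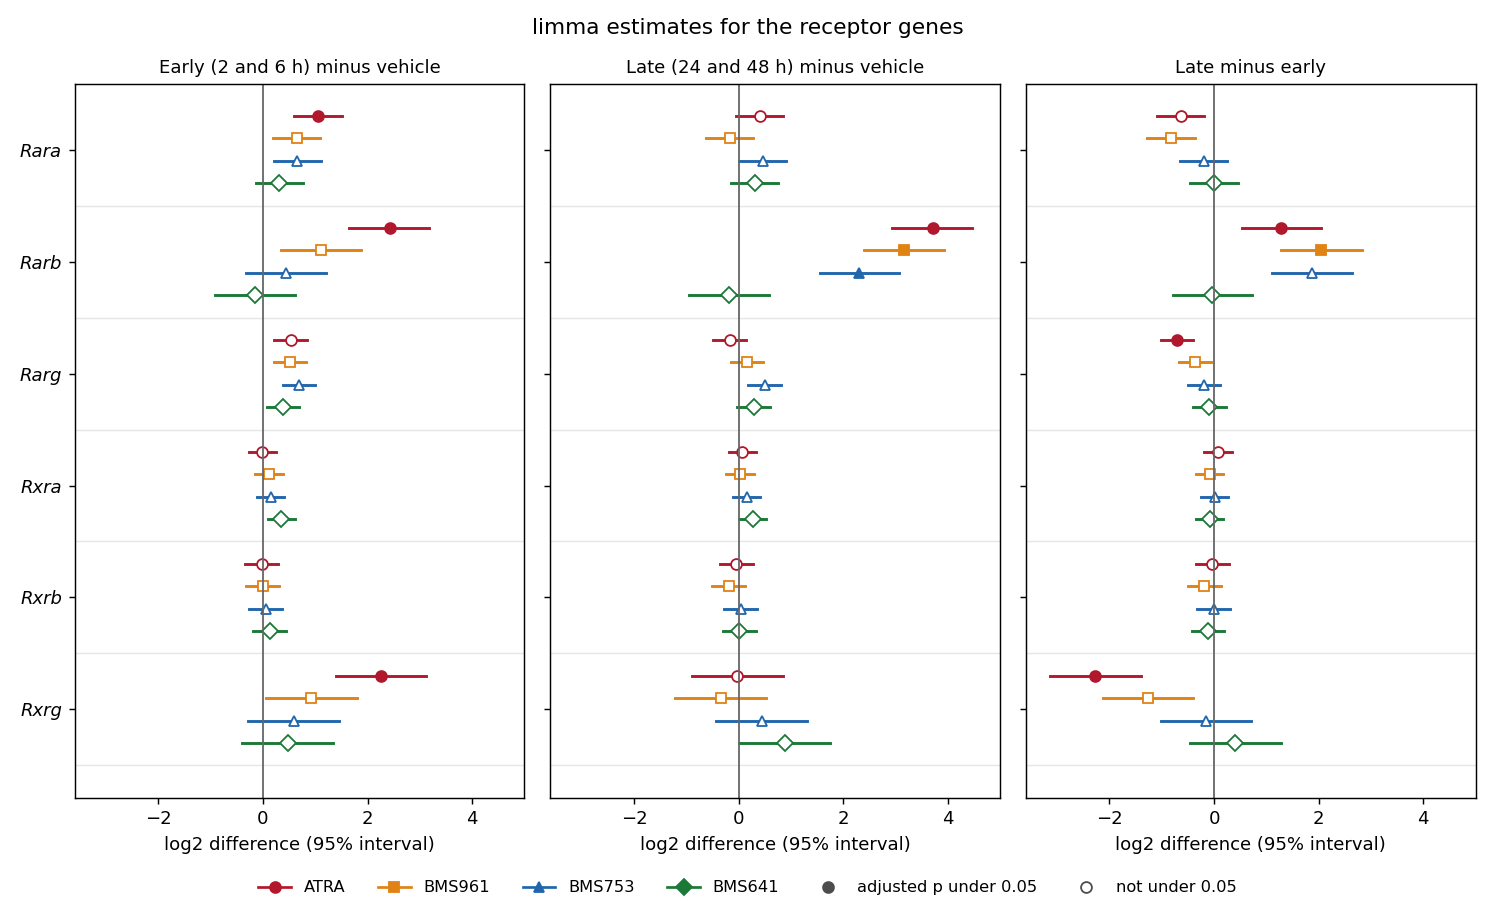
limma estimates (log2 difference, points) with 95% intervals (bars) for the 6 receptor genes and 4 retinoids, for early minus vehicle, late minus vehicle and late minus early. Filled points passed the test over all genes, among them Rarb late with ATRA (3.71), BMS961 (3.17) and BMS753 (2.31), and open points did not.

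ATRA, BMS753 and BMS641 were all used at 1 µM, so 3 pairs of them were compared early and late, for 6 comparisons of 6 genes. Late Rarb was higher with ATRA than with BMS641 by 3.88 ± 0.35 (adjusted p = 0.000225; percent of all genes called 14.8), and 2.63-fold higher with ATRA than with BMS753 (1.40 ± 0.35, adjusted p = 0.0345; percent called 8.02). Between BMS753 and BMS641 it was 2.49 (interval 1.72 to 3.25), which did not pass over all genes (adjusted p = 0.0977; percent called 0, with 810 genes at an unadjusted p under 0.05 by limma). On leaving out either vehicle array that difference stayed at 2.49. Vehicle arrays enter it only through the estimate of spread, which then lacks the vehicle pair, so no p is given for those fits. Early Rarb was higher with ATRA than with BMS641 by 2.56 ± 0.35 (adjusted p = 0.00532; percent called 1.6) and than with BMS753 by 1.98 ± 0.35 (adjusted p = 0.0344; percent called 0.376). Between BMS753 and BMS641 early it was 0.59 (interval -0.18 to 1.35; percent called 0, with 240 genes at an unadjusted p under 0.05 by limma).

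With the array set as a block, which subtracts the gap of the vehicle pair, late Rarb differed by 2.55 between ATRA and BMS641 (adjusted p = 0.0438) and by 0.06 between ATRA and BMS753 (adjusted p = 0.987). The early differences were then 1.23 (adjusted p = 0.323) and 0.65 (adjusted p = 0.695). The late difference between ATRA and BMS641 passed without any single array. The late difference between ATRA and BMS753 did not pass without 1 of 10 arrays (either late ATRA or BMS753 array, any BMS961 array, or the BMS641 2 h or 6 h array; values between 1.18 and 1.62), nor in a fit of late and vehicle arrays alone (adjusted p = 0.119). The early one did not pass without 1 of 12 arrays (either early ATRA or BMS641 array, or any BMS961 or BMS753 array; values between 1.71 and 2.25), nor with no common steps (adjusted p = 0.0552) or in a fit of early and vehicle arrays alone (adjusted p = 0.119). The early difference between ATRA and BMS641 did not pass without the ATRA 2 h, BMS641 2 h or BMS641 6 h array (values between 2.29 and 2.71).

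BMS961 was used at 0.1 µM, so its values are set beside those of BMS641 without a test. Rarb with BMS961 lay above Rarb with BMS641 by 1.03, 1.50, 3.14 and 3.55 at 2, 6, 24 and 48 h. The same differences were 2.66, 2.47, 3.48 and 4.29 for ATRA and 0.29, 0.88, 2.13 and 2.84 for BMS753.

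**Figure D3:**
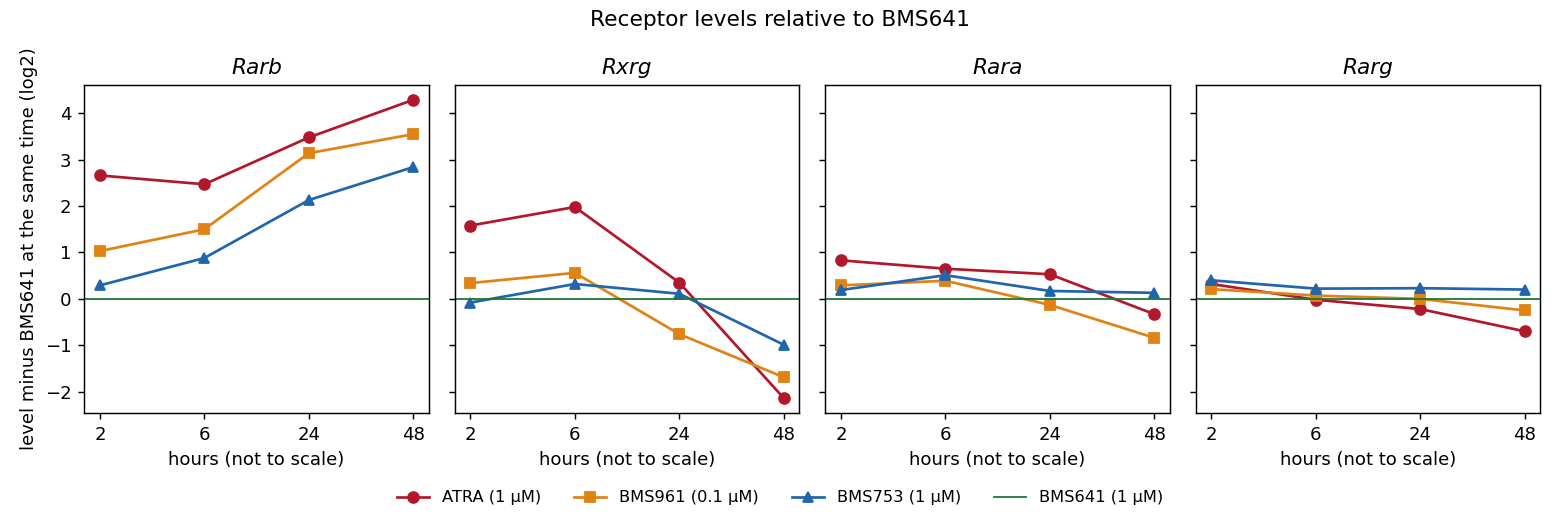
Level of Rarb, Rxrg, Rara and Rarg with ATRA, BMS961 or BMS753 minus the level with BMS641 at the same time (vertical axis, log2) at 2, 6, 24 and 48 h (horizontal axis). Rarb differences reach 4.29, 3.55 and 2.84 at 48 h, while those of Rxrg are -2.14, -1.69 and -0.99 at 48 h.

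Whether the course itself differed was asked with the change from early to late compared between retinoids, a comparison added after the levels had been seen. For Rarb the change was larger with ATRA than with BMS641 by 1.32 ± 0.49 (adjusted p = 0.285; percent of all genes called 0.301) and with BMS753 than with BMS641 by 1.90 ± 0.49 (adjusted p = 1; percent called 0, with 310 genes at an unadjusted p under 0.05 by limma). Between ATRA and BMS753 it was -0.58 (interval -1.66 to 0.50; percent called 0.366). None of the 18 tests of receptor genes passed. On leaving out either vehicle array the values between ATRA and BMS641 stayed at 1.32 for Rarb and -2.68 for Rxrg. Vehicle arrays enter these comparisons only through the estimate of spread. Without the ATRA 24 h array the Rxrg value was -3.58 between ATRA and BMS641 and -3.02 between ATRA and BMS753. Without the BMS641 24 h array it was -3.43 between ATRA and BMS641.

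Rxrg is the gene of RXRγ. With ATRA its level was 7.81, 8.22, 7.00 and 4.49 at 2, 6, 24 and 48 h. With BMS961 it was 6.57, 6.80, 5.89 and 4.95, with BMS753 6.14, 6.56, 6.76 and 5.64, and with BMS641 6.23, 6.24, 6.65 and 6.63, against 5.94 and 5.58 on the vehicle arrays. The ATRA arrays lay above both vehicle arrays up to 24 h and below both at 48 h, where BMS961 lay below both as well. BMS641 arrays lay above both vehicle arrays at every time. Of the 17 gaps between neighbours in the order of the levels, 13 were within the gap of the vehicle pair, a count that again covers neighbours only. ATRA at 48 h was the lowest of all arrays.

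Rxrg was 4.77-fold higher with early ATRA than with vehicle (2.25 ± 0.40, adjusted p = 0.0186), which did not pass without the ATRA 2 h array, the ATRA 6 h array or vehicle replicate 2 (adjusted p between 0.0565 and 0.185), with the array set as a block (2.07, adjusted p = 0.0565) or with no common steps (adjusted p = 0.0918). Late against early with ATRA it fell by 2.27 ± 0.40 (4.82-fold lower, adjusted p = 0.00939), and this did not pass without the ATRA 2, 6 or 48 h array (values between -2.37 and -1.36, adjusted p between 0.0648 and 0.11). The late mean joins unlike levels. The step from 24 to 48 h was -2.51 on ATRA arrays, -0.94 for BMS961, -1.12 for BMS753 and -0.02 for BMS641, so late against vehicle gave -0.02 for ATRA (interval -0.88 to 0.85). The residual SD of Rxrg in this fit, 0.49, was higher than that of 98.5% of genes. The change from early to late was lower with ATRA than with BMS641 by -2.68 ± 0.56 (adjusted p = 0.0774) and than with BMS753 by -2.12 ± 0.56 (adjusted p = 0.161). Early Rxrg differed by 1.78 between ATRA and BMS641 (interval 0.91 to 2.65, adjusted p = 0.0507). In a fit of early and vehicle arrays alone this passed (adjusted p = 0.00846), as did the early difference between ATRA and BMS753 (adjusted p = 0.0236). Early Rxrg between ATRA and BMS641 also passed after quantile normalization (adjusted p = 0.0419) and among genes above the median mean level (adjusted p = 0.0376). It differed by 1.78 too without the ATRA 24 h or 48 h array, the BMS641 24 h or 48 h array or either vehicle array. These arrays enter the early comparison only through the estimate of spread. Late it differed by -0.90 (adjusted p = 0.16), by -1.80 without the ATRA 24 h array (adjusted p = 0.00358) and by -1.65 without the BMS641 24 h array (adjusted p = 0.0411). Between ATRA and BMS753 the values were 1.66 early (adjusted p = 0.111), which passed without the ATRA 24 h or 48 h array (adjusted p = 0.0106), and -0.45 late (adjusted p = 0.537), which was -1.36 without the ATRA 24 h array (adjusted p = 0.0182). With BMS961 the late against early value was -1.26 (adjusted p = 0.176), which passed without the ATRA 24 h or 48 h array (adjusted p = 0.0222).

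Rara encodes RARα. ATRA arrays had 8.92, 8.64, 8.59 and 7.69 at 2, 6, 24 and 48 h. BMS961 arrays had 8.38, 8.38, 7.92 and 7.18, BMS753 arrays 8.28, 8.50, 8.23 and 8.15, and BMS641 arrays 8.09, 7.99, 8.06 and 8.02. The vehicle arrays had 7.63 and 7.82. All BMS753 and BMS641 arrays lay above both vehicle arrays, as did ATRA and BMS961 up to 24 h. At 48 h ATRA lay between the vehicle arrays and BMS961 below both. Rara rose 2.08-fold with early ATRA (1.05 ± 0.21, adjusted p = 0.034), and the other early values were 0.65, 0.66 and 0.31 for BMS961, BMS753 and BMS641. That call was lost with arrays centred on their median (0.99, adjusted p = 0.071), with no common steps (1.05, adjusted p = 0.0688), and without vehicle replicate 1 or any 1 of the early ATRA, BMS961 and BMS641 arrays (values between 0.89 and 1.21, adjusted p between 0.0614 and 0.395). Late against early the values were -0.64 for ATRA (adjusted p = 0.085), -0.83 for BMS961 (adjusted p = 0.0919), -0.20 for BMS753 and 0.00 for BMS641. Rara passed in the first of these without the ATRA 24 h array (adjusted p = 0.0239) and in the second without the ATRA 24 h or 48 h array (adjusted p = 0.0414). Rara did not pass in any of the 6 matched comparisons; the late difference of BMS753, named for its product, from BMS641 was 0.15 (interval -0.30 to 0.60).

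Rarg encodes RARγ, the receptor named for BMS961. ATRA arrays had 9.65, 9.41, 9.14 and 8.50 at 2, 6, 24 and 48 h. BMS961 arrays had 9.53, 9.50, 9.37 and 8.94, BMS753 arrays 9.72, 9.65, 9.60 and 9.39, and BMS641 arrays 9.32, 9.43, 9.37 and 9.20, against 8.90 and 9.09 in vehicle. Every 2, 6 and 24 h array lay above both vehicle arrays, and ATRA at 48 h was the lowest of the 18. Rarg fell late against early with ATRA (-0.71 ± 0.14, 1.63-fold lower, adjusted p = 0.0157). Late it was lower with ATRA than with BMS753 (-0.67 ± 0.14, adjusted p = 0.0199) and than with BMS641 (-0.46 ± 0.14, adjusted p = 0.049). In these comparisons 7.27, 8.02 and 14.8 percent of all genes were called, and by the size of the change Rarg ranked 1511, 1835 and 4335 of 19938 genes. The fall did not pass without the ATRA 2, 6 or 48 h array (adjusted p between 0.0505 and 0.202). Under the array set block the late differences were -0.49 (adjusted p = 0.753) from BMS753 and -0.27 (adjusted p = 0.766) from BMS641. The first did not pass without the ATRA 48 h or either late BMS753 array (values between -0.78 and -0.48) or in a fit of late and vehicle arrays alone (adjusted p = 0.0908). The second did not pass without any 1 of the retinoid arrays other than ATRA at 24 h (values between -0.59 and -0.27), after quantile normalization (adjusted p = 0.0803) with no common steps (adjusted p = 0.124) or in a fit of late and vehicle arrays alone (adjusted p = 0.121). Early against vehicle Rarg had 0.53, 0.52, 0.69 and 0.38 for ATRA, BMS961, BMS753 and BMS641, none past the test, and the BMS753 value passed without vehicle replicate 2 (adjusted p = 0.0216).

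Rxra and Rxrb, the genes of RXRα and RXRβ, varied least of the 6. Rxra lay between 6.48 (ATRA, 6 h) and 6.96 (BMS641, 6 h) on all 18 arrays, and Rxrb between 7.41 (BMS961, 48 h) and 7.85 (BMS641, 2 h). Their SDs over the 18 arrays were 0.14 and 0.12, against a median of 0.18 over all genes and 1.50, 0.90, 0.41 and 0.31 for Rarb, Rxrg, Rara and Rarg. Rxra and Rxrb passed in none of the 21 comparisons. For late ATRA against vehicle the intervals ran from -0.19 to 0.33 for Rxra and from -0.36 to 0.27 for Rxrb. Rxra with BMS641 lay above both vehicle arrays at every time (6.81 to 6.96, against 6.56 and 6.61), with an early difference of 0.35 (interval 0.09 to 0.61, adjusted p = 0.618).

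Set beside each agonist, the RNA of the receptor it is named for behaved as follows. BMS961 met Rarg RNA at 9.53, 9.50, 9.37 and 8.94, and BMS753 met Rara RNA at 8.28, 8.50, 8.23 and 8.15, all but the 48 h Rarg value above both vehicle arrays. This was not particular to these agonists. For Rara 14 of the 16 retinoid arrays lay above both vehicle arrays, and for Rarg 14 as well, with all 4 BMS641 arrays among them each time. BMS641 met Rarb RNA at 4.92 to 5.03, between the vehicle arrays. With BMS961 or BMS753 Rarb RNA passed the highest BMS641 level at every time. RNA levels do not give receptor protein, so these levels do not say which receptors were present.

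Genes of retinoid signalling other than the receptors were followed in the same fit. Of 16 measured genes of the retinoid response list, 10 rose late with ATRA, 3 with BMS961 and 0 with BMS753 or BMS641, and 0 fell with any. Over all genes 4.71, 1.26, 0.186 and 0 percent were called in these comparisons. The list medians were 0.93, 0.49, 0.16 and 0.05, beside -0.02, 0.01, 0.01 and 0.02 over all genes. Cyp26a1 rose by 6.54 ± 0.31 with ATRA and 4.09 ± 0.31 with BMS961. The meiosis gene Stra8, the binding protein gene Crabp2 and Dhrs3, which reduces retinaldehyde, rose by 3.80, 3.66 and 3.46 with ATRA; Stra8 and Crabp2 did not pass with the array set as a block (adjusted p = 0.185 and 0.12). Stra6, which takes up retinol, rose by 1.90 ± 0.27 with BMS961. Of the 10 ATRA calls, 3 passed with that block (Cyp26a1, Stra6 and Dhrs3).

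Dhrs3 had a Rarb-like course with BMS753 (5.79, 5.76, 6.80 and 7.53 at 2, 6, 24 and 48 h), but Cyp26a1 did not. Cyp26a1 with BMS753 was 6.56, 7.00, 6.16 and 5.57, against 5.05 and 4.85 in vehicle, so it was highest at 6 h while Rarb was highest at 48 h. With BMS641 Cyp26a1 lay between 4.78 and 4.94.

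**Figure D4:**
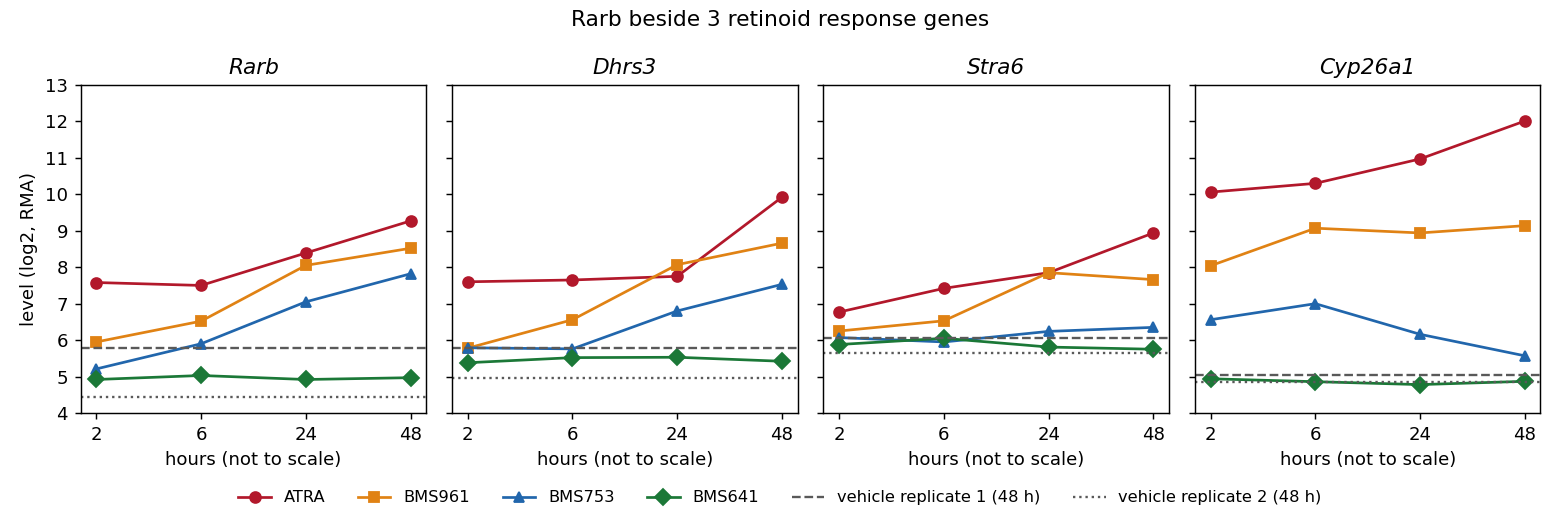
Log2 levels of Rarb and of the response genes Dhrs3, Stra6 and Cyp26a1 (vertical axis) at 2, 6, 24 and 48 h of each retinoid (horizontal axis, 1 array per point), with the vehicle arrays as horizontal lines. With BMS753 Rarb and Dhrs3 are highest at 48 h (7.82 and 7.53), Cyp26a1 is highest at 6 h (7.00), and with BMS641 Cyp26a1 stays between 4.78 and 4.94.

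Partner and regulator genes are set beside the same percents of all genes called. Of 12 other receptors that pair with RXR, 0 passed late against vehicle with any retinoid. Of 13 coregulators, Nrip1, a ligand-dependent corepressor of nuclear receptors, rose with ATRA (2.20 ± 0.17, adjusted p = 9.46e-05) and BMS961 (1.12 ± 0.17, adjusted p = 0.0088) and no other member passed late against vehicle. Of 12 orphan receptors, Nr5a2, a factor of pluripotent cells, fell with late ATRA (-1.71 ± 0.27, adjusted p = 0.00661) and Nr2c1 rose (0.70 ± 0.15, adjusted p = 0.0244); Nr2c1 did not pass under that block (adjusted p = 0.147). The medians of these 3 lists with late ATRA were -0.04, 0.13 and 0.20. At late times with ATRA against BMS641, where 14.8 percent of all genes were called, 2 of 12 partners were lower (Nr4a1 and Nr1i2). Of the coregulators 2 were higher and 3 lower, and of the orphan receptors 3 were higher and 1 lower. With ATRA against BMS753 late, where 8.02 percent were called, 1 partner was lower (Nr4a1), 1 coregulator was higher and 2 lower, and 1 orphan receptor was higher and 1 lower. Under the array set block Nrip1 was the only one of these genes to pass against BMS641 (2.12, adjusted p = 0.0358), and none passed against BMS753.

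By Pearson correlation over the 18 arrays, among 4962 genes with an SD of at least 0.25, the genes most like Rarb were Dhrs3 (r = 0.971), Cotl1 (0.966) and Greb1l (0.959). Over the 13 arrays without ATRA and vehicle replicate 1 these values were 0.979, 0.965 and 0.954. The closest gene was Lnx2 for Rara (0.862), Plcd3 for Rarg (0.935), Nav1 for Rxra (0.833), Prelid3a for Rxrb (0.811) and Ppfibp2 for Rxrg (0.895), with 0.77, 0.887, 0.876, 0.773 and 0.814 over the 13 arrays. Among the receptor genes themselves the highest correlations were between Rara and Rxrg (0.843) and between Rara and Rarg (0.692), while Rarb had -0.017 with Rara and -0.148 with Rxrg. Over the 13 arrays the first pair had 0.798 and the second 0.872, and Rarb had -0.33 with Rara and -0.436 with Rxrg. These are descriptions over arrays that share retinoids and times.

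Markers of other cell types were followed on the same arrays. The summed log2 level of 12 primitive and parietal endoderm markers lay between 83.7 and 115.5 with ATRA, 82.7 and 106.5 with BMS961, 82.5 and 88.0 with BMS753, and 82.1 and 82.9 with BMS641, against 80.6 and 90.4 in vehicle. Counted apart for each retinoid and for vehicle, 10 of the 12 lay above the array median on every array of that group. Gata6, an endoderm factor, reached 11.30 with ATRA and 10.93 with BMS961 at 48 h, against 7.08 and 6.03 in vehicle. For 7 visceral endoderm markers the sums ran from 32.2 to 37.9 over all arrays. Counted apart in the same way, 1 of the 7 lay above the array median on every array of a group. The 10 fibroblast markers summed to between 53.1 and 55.9 with ATRA and between 51.1 and 56.1 with BMS961. They summed to between 49.1 and 52.8 with BMS753 and between 49.9 and 52.5 with BMS641, against 49.1 and 52.5 in vehicle. The 9 neural markers summed to between 54.9 and 57.4 over all arrays, against 55.6 and 55.8 in vehicle. The part of these cell types in the receptor levels was not tested, and in such bulk RNA fewer cells with a transcript and less transcript per cell cannot be told apart.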

How the data were processed

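Total RNA of F9 cells was measured on 18 arrays. The deposited table holds log2 levels per probe set, for which the submitters' processing notes name RMA and Affymetrix Expression Console 1.1; the authors' values were used unchanged. Of 35556 probe sets 21789 had 1 gene symbol in the platform annotation; a gene with several was represented by the brightest, which left 19938 genes. With limma 3.58.1 in R 4.3.3 all 18 arrays were fitted at once. The model held 9 group means, namely vehicle and every retinoid at early and late times, plus a step shared by all retinoids between 2 and 6 h and another between 24 and 48 h. It left 7 residual degrees of freedom (prior 4.55). Spread was thus estimated from the 2 vehicle arrays and from how far single retinoids departed from the shared steps, which can hold real differences in time course. A gene was called at a Benjamini-Hochberg adjusted p under 0.05 over all genes within a comparison, with 95% intervals from the same fit. The fit was also run on simulated data with independent noise and changes set in the late ATRA arrays only. That simulation held no array set and no time courses that differ between retinoids, so it does not cover them. Motifs were sought in RefSeq promoter windows (GRCm38.p6). Tables and figures used Python 3.11.15, pandas 2.3.3, numpy 2.4.6 and matplotlib 3.10.9. Named genes were the 6 receptors, up to 4 called members of each list per comparison, and the genes most like each receptor (3 for Rarb, the first for the others). Gata6, Nanog, Zfp42, Sox2 and Pou5f1 were named from the marker lists after their values were seen. Members, lists and tests were chosen with earlier results of these data known.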

Additional observations from a re-analysis of the deposited data

How the results depend on the processing

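Late against vehicle 3 of 24 tests passed, and leaving out each array in turn gave between 1 and 3. Early against vehicle 3 of 24 passed, with 1 under no common steps and between 0 and 3 on leaving out each array. Late against early 4 of 24 passed, with 2 under no common steps and between 1 and 6 on leaving out each array. At matched dose and time 6 of 36 passed, with 2 when the array set was a block and between 2 and 9 on leaving out each array. For the difference of the early to late changes 0 of 18 passed by limma, with 2 when the array set was a block and between 0 and 2 on leaving out each array. The other settings, which were quantile normalization, median centring, genes above the median mean level, averaged probe sets, robust eBayes with a trend, a 2-fold minimum and arrays of 1 phase with vehicle only, kept each count within 1.5 times. A kept count did not always hold the same calls. Arrays of 1 phase with vehicle only ended 5 calls and added 2, both of early Rxrg with ATRA. No called difference changed sign under any setting run. In the main fit 0 to 4.71 percent of all genes were called late against vehicle, and 0 to 1.25 percent early against vehicle. The share was 0 to 7.27 percent late against early and 0 to 14.8 percent at matched dose and time. For the difference of the early to late changes it was 0 to 0.366 percent. Late against early could not be fitted with arrays of 1 phase. The causes of these shifts were not tested, apart from the fewer arrays that leaving 1 out implies. Leaving out either vehicle array also takes the vehicle pair out of the estimate of spread. No paired analysis was possible because only the vehicle arrays carry replicate numbers. With 1 array for each retinoid and time, single-time values have no replicate check, and low levels such as Rarb with BMS641 have no detection call.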
